A study of Picea abies with 40 samples.

Results

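Stele 2 was compared with stele 1 in roots of Norway spruce (Picea abies), a conifer, with 4 libraries of each. These 8 libraries are part of a series of 40. All of them come from seedlings kept on plates until about 2 days past germination. The comparison covers 27239 genes that passed a filter on low counts, out of 70736 gene IDs in the table. The stele is the central cylinder of a root and holds the vascular tissue that carries water and sugars. New cells of a root arise near its tip, and with distance from the tip they first elongate and then differentiate, so a stele sampled at different places holds cells at different stages. Laser capture microdissection frees regions picked under the microscope from thin sections with a laser beam.

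The captured groups were stele 1, stele 2, stele 3, ground tissue, which lies around the stele, and the QC area, an abbreviation used here as the labels give it, with 4 libraries each. Whole root segments cut in order from the tip gave zones 1 to 4, with 5 libraries each. By the submitters' design text the steles were taken where root cells elongate and where they differentiate, with no number tied to either. Whether stele and zone numbers mark matching places is not given in the sources used here. No markers of these tissues could be checked, because no gene names came with the IDs. Genes are therefore given by ID, without a role.

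The stele 2 libraries held 9082826 to 11991554 counts and the stele 1 libraries 4936950 to 8659506 counts. They detected 26310 to 34888 genes in stele 2 and 28845 to 33008 in stele 1. By the lane number in the library names, all 4 stele 2 libraries were sequenced in lane 7, whereas 2 stele 1 libraries were in lane 7 and 2 in lane 8. The biological coefficient of variation was 48.2% over the captured libraries and 16.02% over the zone libraries. The labels do not say whether replicates came from separate seedlings or pools, so the p-values measure a spread between libraries that may be technical, and they are too small if replicates shared a seedling. Nor do the labels say whether stele 1 and stele 2 were cut from the same seedlings, and the tests given here pair no libraries unless a replicate block is named. A lower level in a captured sample cannot be told apart from a smaller share of the cells that hold the transcript.

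Stele 2 differed from stele 1 in 5822 of the tested genes (21.4%). Higher levels in stele 2 were called for 3378 genes (12.4%) and lower levels for 2444 (8.97%). A call is a p under 0.05 in the quasi-likelihood test of edgeR, adjusted after Benjamini and Hochberg over all tested genes. The called genes were thus 58.0% higher, but 46.3% higher when libraries were scaled by total counts alone, where the median log2 fold change of all tested genes lay at -0.22 and not at -0.05.

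Differences on the higher side were larger. The median log2 fold change was 1.90 among the genes higher in stele 2 and -1.54 among those lower. Of the higher genes 2730 differed at least 2-fold, and so did 1841 of the lower genes. 284 of the higher genes had no count in any stele 1 library and 130 of the lower genes had none in any stele 2 library. Set at the fold that a floor of 3 counts over the group without counts allows, these genes left both medians at 1.90 and -1.54, and differences of at least 16-fold then numbered 599 among higher and 185 among lower genes. The higher genes had a median level of 25.8 CPM (counts scaled to a common library size of 1e6, after TMM normalisation) in stele 2 and 6.86 CPM in stele 1. The lower genes had 6.47 CPM in stele 2 and 18.3 CPM in stele 1. Over all tested genes the medians were 5.10 CPM in stele 2 and 4.996 CPM in stele 1.

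Every stele 2 library lay above every stele 1 library for 3078 tested genes (11.3%) and below every one for 2676 (9.82%). Among the called genes this held for 2509 of the 3378 higher and for 1675 of the 2444 lower, so a part of the calls rests on groups whose libraries overlap.

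**Figure D1:**
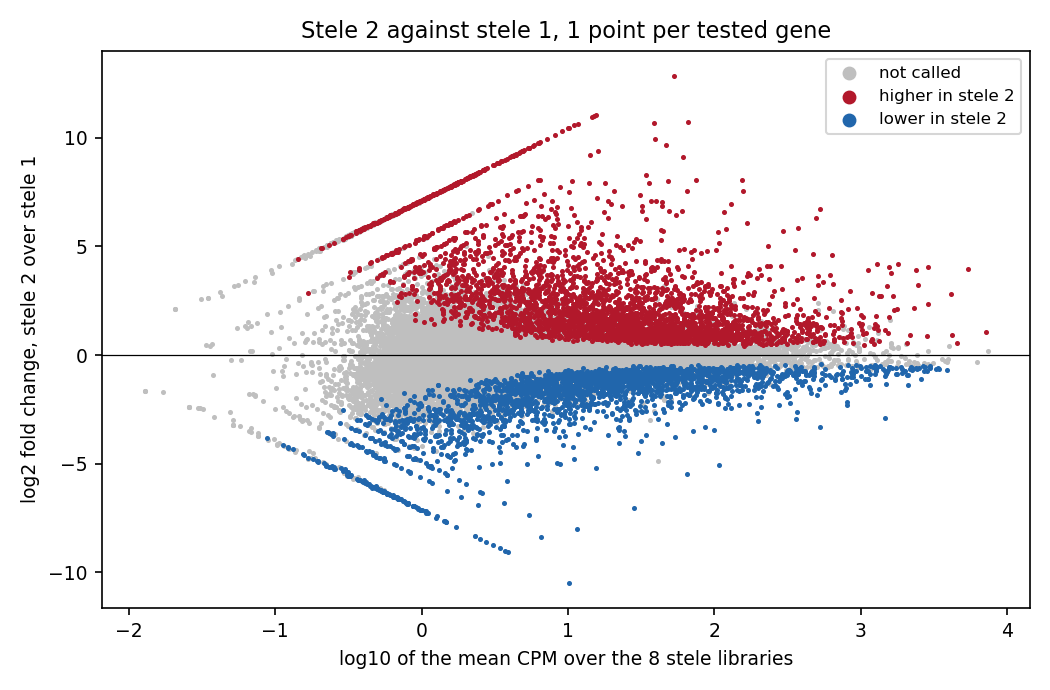
Each point is 1 of the tested genes, with log10 of its mean CPM over the 8 stele libraries on the horizontal axis and its log2 fold change, stele 2 over stele 1, on the vertical axis. 19 tested genes without a count in any stele library are not drawn. The 3378 genes higher in stele 2 (red) reach further from 0 than the 2444 lower ones (blue), and the straight lines of points at the edges are genes with no or few counts in 1 of the steles.

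The libraries of both steles separated, but not evenly. PC1 of the 8 stele libraries over all tested genes held 46.0% of the variance. Stele 2 libraries lay at 124.3, 85.6, 27.4 and 183.3 on it in the order of their replicate numbers, and stele 1 libraries at -51.4, -100.3, -159.2 and -109.7. Stele 2 replicate 3 and stele 1 replicate 1 were thus the libraries nearest to the other group. Across genes, log2 CPM of stele 2 replicate 3 correlated at 0.817 to 0.885 with the stele 1 libraries and at 0.857 to 0.913 with the other stele 2 libraries. PC2, with 17.6% of the variance, ran from -133.5 for stele 2 replicate 1 to 142.7 for stele 2 replicate 4, while the stele 1 libraries lay between -0.33 and 22.7.

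Single libraries moved how many genes were called. Without stele 2 replicate 3, 3671 genes were higher and 2948 lower. Without stele 1 replicate 3, 2254 were higher and 1473 lower. The libraries of lane 7, 4 from stele 2 and 2 from stele 1, gave 600 higher and 53 lower genes of 29947 tested, and 595 and 52 of these were called the same way over both lanes. The log2 fold changes of lane 7 and of both lanes correlated at 0.927 across genes, although lane 7 libraries are part of both. Lane 8 held no stele 2 library, so no value could be had there. With lane as a term in the model, 2589 genes were higher and 1568 lower. The part of lane in the differences between steles was not tested beyond these values.

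The genes higher in stele 2 with the smallest p-values were low in stele 1. These are the 2 smallest p-values among 1648 genes that were called, averaged at least 10 CPM and did not overlap between groups. MA_10429882g0010 had 31.4, 49.2, 18.5 and 28.0 CPM in stele 2, against 0, 0, 0 and 0.122 CPM in stele 1. All stele 2 libraries thus lay far above stele 1, where a single count was found, in replicate 4. The ratio of pooled counts was 998, with an exact 95% counting interval of 179 to 39452 (edgeR adjusted p = 2.08e-07). Intervals and floors of this kind cover counting error only. With stele 1 replicate 4 left out, the gene had no count in stele 1 and was at least 243-fold higher in stele 2, taking 3 counts over the other 3 stele 1 libraries as the floor.

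MA_15847g0010 had 51.3, 92.0, 34.4 and 49.5 CPM in stele 2, against 1.17, 0.820, 1.03 and 2.56 CPM in stele 1. The lowest stele 2 library lay far above the highest stele 1 library. Its log2 fold change was 5.32 ± 0.42 (SE, n = 4 each, edgeR adjusted p = 1.03e-06). In the zones this gene averaged 0.816 ± 0.617, 11.2 ± 5.40, 50.7 ± 18.3 and 52.3 ± 8.72 CPM from zone 1 to zone 4 (SD, n = 5 each), so it was also low at the tip and higher in the later zones. MA_10429882g0010 stayed low in whole segments, at 0.114 ± 0.162, 0.766 ± 0.587, 2.40 ± 0.839 and 2.47 ± 0.633 CPM (SD, n = 5 each).

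On the lower side, MA_10431910g0010 and MA_655783g0010 had the smallest p-values of 963 genes by the same rule. MA_10431910g0010 had 11.97, 13.1, 14.7 and 11.1 CPM in stele 2, against 51.5, 35.1, 45.6 and 38.9 CPM in stele 1. Both groups were narrow and stood apart. The log2 fold change was -1.75 ± 0.17 (SE, n = 4 each, edgeR adjusted p = 5.32e-06). MA_655783g0010 had 2.88, 1.67, 9.60 and 6.19 CPM in stele 2, against 58.5, 105, 101 and 68.4 CPM in stele 1. The groups did not overlap, and stele 2 replicate 3 was the highest of its group. The log2 fold change was -4.03 ± 0.48 (SE, n = 4 each, edgeR adjusted p = 3.57e-05). Both genes fell along the zones, with 75.9 ± 6.78, 29.0 ± 6.95, 18.7 ± 5.35 and 12.8 ± 1.70 CPM from zone 1 to zone 4 for MA_10431910g0010 (SD, n = 5 each). MA_655783g0010 had 51.9 ± 9.50, 8.77 ± 3.73, 0.483 ± 0.319 and 0.224 ± 0.141 CPM there (SD, n = 5 each), and its last step, from zone 3 to zone 4, did not pass the test.

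**Figure D2:**
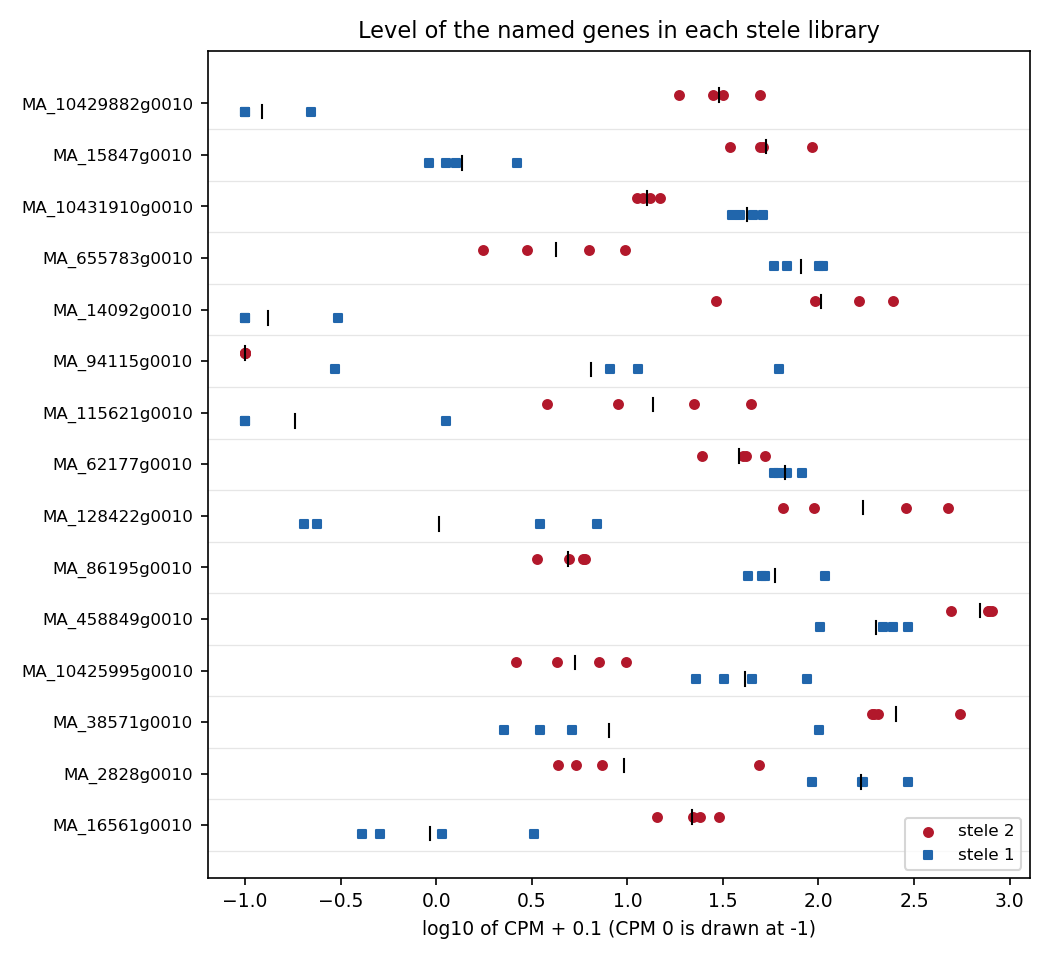
Levels of the 15 genes named in the text in each stele library, as log10 of CPM + 0.1, with stele 2 as circles and stele 1 as squares. Black ticks are the means of the log values, and the groups do not overlap for any of these genes because the rule that chose them required it.

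The zone libraries share no library with the steles and were tested on their own. Of the genes called between steles, 3180 higher and 2197 lower ones were also tested in the zones. 198 of the higher genes (5.86%) and 247 of the lower (10.1%) failed the zone filter, and of these 28 and 25 had no count in any zone library. Counts of matching genes below are out of those tested in both tables, 23730 in all.

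Most of the stele difference ran in the direction of the step from zone 1 to zone 2. In the zones, 7799 genes (28.1%) were higher and 7663 (27.6%) lower in zone 2 than in zone 1. Of the genes higher in stele 2, 2541 (79.9%) were also higher in zone 2 and 75 (2.36%) were lower there. Of the genes lower in stele 2, 2030 (92.4%) were also lower in zone 2 and 13 (0.592%) were higher. Over all genes tested in both tables, 28.7% were higher and 29.9% lower in zone 2. Genes called in both comparisons thus had the same direction in 98.1% of cases.

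Seen from the zone lists, 37.3% of the genes higher in zone 2 were higher in stele 2, against 13.4% of all genes tested in both. Of the genes lower in zone 2, 28.6% were lower in stele 2, against 9.26% of all. Across genes the log2 fold changes of both comparisons had a Pearson r of 0.727 and a Spearman rho of 0.737, given as a description because genes are not independent replicates. Taken singly against the mean of the other stele, each of the 8 stele libraries gave an r of 0.488 to 0.7496. Within lane 7 the numbers were smaller, with 522 genes higher in both and 48 lower in both, while 13 genes went opposite ways. Without stele 1 replicate 3, 3026 genes had the same direction and 55 the opposite one, against 4571 and 88 with all libraries.

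MA_14092g0010 led the genes higher in both by the smaller of its log2 fold changes, among 1082 candidates. It had 245, 162, 29.1 and 95.4 CPM in stele 2, against 0, 0, 0.205 and 0 CPM in stele 1. Stele 2 replicate 3 was the lowest of its group, and the 2 counts of stele 1 were both in replicate 3. Pooled counts gave a ratio of 2009, with 556 to 16594 as the exact interval (edgeR adjusted p = 2.38e-05). Leaving out that replicate made it at least 909.5-fold higher. In zone 2 it had 85.6, 44.4, 99.1, 63.4 and 65.0 CPM, against 0.154, 0, 0, 0.222 and 0 CPM in zone 1. It went on upward from there, to 524 ± 109 CPM in zone 3 and 1078 ± 151 CPM in zone 4 (SD, n = 5 each).

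MA_94115g0010 led 736 candidates that were lower in both. It had no count in stele 2, against 0.195, 11.3, 61.8 and 8.04 CPM in stele 1, where replicate 3 held 603 of the 753 counts. In pooled counts it was at least 320-fold lower in stele 2 (edgeR adjusted p = 0.00108), and at least 94.0-fold lower without stele 1 replicate 3. Within lane 7 it had 0 counts in stele 2 and 84 in 2 stele 1 libraries, of which 83 were in replicate 2 and 1 in replicate 1. In pooled counts of that lane it was at least 87.3-fold lower in stele 2 but missed the threshold (edgeR adjusted p = 0.0914). In zone 2 it had 0.560, 1.25, 0, 0.439 and 0.190 CPM, against 22.9, 23.4, 20.8, 14.2 and 21.7 CPM in zone 1. The zone log2 fold change was -5.35 ± 0.35 (SE, n = 5 each, edgeR adjusted p = 2.1e-11), and -6.12 without replicate 2 of every zone.

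Genes that went against the step were few. MA_115621g0010 led the 15 candidates that were higher in stele 2 and lower in zone 2. It had 22.1, 44.4, 3.72 and 8.84 CPM in stele 2, against 0, 0, 1.03 and 0 CPM in stele 1. All 10 stele 1 counts were in replicate 3. Its log2 fold change was 5.94 ± 1.01 (SE, n = 4 each, edgeR adjusted p = 0.00129), it was 5.14 without stele 2 replicate 2, and without stele 1 replicate 3 the gene was at least 148-fold higher in stele 2. In zone 2 it had 16.8, 11.3, 19.7, 16.9 and 15.97 CPM, against 100.3, 78.4, 78.8, 80.9 and 73.0 CPM in zone 1. These groups lay far apart, with a log2 fold change of -2.35 ± 0.13 (SE, n = 5 each, edgeR adjusted p = 8.86e-13). The gene had no count in any library of ground tissue or the QC area, although zone 1 was its highest zone.

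MA_62177g0010 was the single candidate that was lower in stele 2 and higher in zone 2. It had 52.5, 41.7, 40.3 and 24.5 CPM in stele 2, against 58.3, 61.6, 81.5 and 68.5 CPM in stele 1. The groups stood close together, with a log2 fold change of -0.76 ± 0.21 (SE, n = 4 each, edgeR adjusted p = 0.0126). Leaving out stele 1 replicate 3 gave -0.66 and no longer passed (edgeR adjusted p = 0.0506), nor did the gene pass with only the steles in the fit (edgeR adjusted p = 0.0862) or within lane 7 (-0.59, edgeR adjusted p = 0.452). In zone 2 it had 192, 204, 197, 198 and 202 CPM, against 168, 145, 188, 163 and 176 CPM in zone 1. That difference, 0.24 ± 0.08 on the log2 scale (SE, n = 5 each, edgeR adjusted p = 0.0169), was lost without replicate 2 (0.19, edgeR adjusted p = 0.0781) or replicate 4 (0.24, edgeR adjusted p = 0.0631) of every zone. It was also lost with RLE scaling (0.18, edgeR adjusted p = 0.0720) and in DESeq2 (0.18, adjusted p = 0.0537).

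The step from zone 2 to zone 3 matched less closely. In the zones, 7280 genes (26.2%) were higher and 7163 (25.8%) lower in zone 3 than in zone 2. Among the genes higher in stele 2, 2075 (65.3%) were also higher in zone 3 and 183 (5.75%) lower. Among the genes lower in stele 2, 1751 (79.7%) were also lower in zone 3 and 50 (2.28%) higher. Of all genes tested in both, 22.7% were higher and 29.2% lower in zone 3. The direction was shared by 94.3% of the genes called in both. Within lane 7 it was shared by 96.3%, with 483 genes higher in both and 36 lower in both. Of the genes higher in zone 3, 38.6% were higher in stele 2, and of those lower in zone 3, 25.2% were lower in stele 2. Across genes, r was 0.622 and rho 0.618. When stele 1 replicate 3 was left out, 129 genes went opposite ways, against 233 with all libraries.

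MA_128422g0010 led 769 candidates higher in both. It had 477, 287, 94.8 and 64.9 CPM in stele 2, against 6.82, 0.137, 0.103 and 3.41 CPM in stele 1. Its levels spread widely within both steles without overlap. edgeR estimated a log2 fold change of 6.57 ± 0.91 (SE, n = 4 each, edgeR adjusted p = 0.000123), and 7.56 without stele 1 replicate 1. In zone 3 it had 399, 118, 455, 230.0 and 234 CPM, against 22.7, 6.09, 19.9, 9.87 and 20.7 CPM in zone 2. The zone difference was 4.19 ± 0.34 on the log2 scale (SE, n = 5 each, edgeR adjusted p = 1.04e-09).

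MA_86195g0010 led 511 candidates lower in both. It had 4.83, 5.75, 5.88 and 3.28 CPM in stele 2, against 50.5, 52.2, 108 and 42.5 CPM in stele 1. Stele 1 replicate 3 stood above the rest of its group. The log2 fold change was -3.67 ± 0.57 (SE, n = 4 each, edgeR adjusted p = 0.000305). In zone 3 it had 1.41, 3.17, 2.61, 0.924 and 1.18 CPM, against 26.9, 33.7, 9.10, 22.2 and 22.6 CPM in zone 2, a log2 fold change of -3.60 ± 0.30 (SE, n = 5 each, edgeR adjusted p = 2.11e-09). It was highest in zone 1, at 341 ± 18.8 CPM (SD, n = 5), so in CPM most of its fall lay between zone 1 and zone 2. On the log2 scale that fall, -3.90 ± 0.21 (SE, n = 5 each), was close in size to the next.

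Genes that moved against this step were again few. MA_458849g0010, first of 46 candidates higher in stele 2 and lower in zone 3, had 777, 495, 775 and 813 CPM in stele 2, against 246, 217, 102 and 293 CPM in stele 1. Stele 2 replicate 2 lay below the rest of its group but above all of stele 1. Its log2 fold change was 1.74 ± 0.38 (SE, n = 4 each, edgeR adjusted p = 0.00342). In zone 3 it had 50.1, 105, 29.0, 36.5 and 68.3 CPM, against 201, 172, 132, 161 and 227 CPM in zone 2, a log2 fold change of -1.63 ± 0.24 (SE, n = 5 each, edgeR adjusted p = 3.98e-06). Its mean was highest in zone 2 among the zones and in stele 2 among the captured groups. Zone 1 averaged 44.3 ± 9.40 CPM and zone 4 averaged 3.69 ± 0.681 CPM (SD, n = 5 each), and stele 3 averaged 286 ± 118 CPM (SD, n = 4).

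MA_10425995g0010, first of 4 candidates lower in stele 2 and higher in zone 3, had 7.02, 9.75, 4.21 and 2.52 CPM in stele 2, against 87.0, 44.5, 31.98 and 22.9 CPM in stele 1. The groups did not overlap, and the log2 fold change was -2.97 ± 0.66 (SE, n = 4 each, edgeR adjusted p = 0.00392). In zone 3 it had 30.2, 11.5, 41.7, 29.6 and 24.3 CPM, against 7.84, 6.45, 9.45, 6.80 and 6.46 CPM in zone 2. The zone difference was 1.90 ± 0.23 on the log2 scale (SE, n = 5 each, edgeR adjusted p = 2.7e-07). The gene rose at every step along the zones, with 3.61 ± 0.731 CPM in zone 1 and 104 ± 12.7 CPM in zone 4 (SD, n = 5 each). In the QC area it averaged 21.1 ± 14.8 CPM (SD, n = 4), in ground tissue 1.77 ± 0.956 CPM and in stele 3 2.74 ± 1.89 CPM (SD, n = 4 each).

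The step from zone 3 to zone 4 did not follow the stele difference. In the zones, 7246 genes (26.1%) were higher and 6334 (22.8%) lower in zone 4 than in zone 3. Of the genes higher in stele 2, 883 (27.8%) were higher in zone 4 and 1203 (37.8%) lower. Of the genes lower in stele 2, 471 (21.4%) were lower in zone 4 and 430 (19.6%) higher. Over all genes tested in both tables, 24.1% were higher and 24.3% lower in zone 4. Genes called in both had the same direction in 45.3% of cases, and in 34.2% within lane 7. Of the genes lower in zone 4, 20.9% were higher in stele 2, against 13.4% of all genes. Of the genes higher in zone 4, 15.5% were higher in stele 2. The r was -0.045 and rho -0.041 across genes, and within lane 7 r was 0.016. With stele 1 replicate 3 left out, 873 genes had the same direction, against 1354 with all libraries.

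MA_16561g0010 led the 582 candidates that were higher in stele 2 and lower in zone 4. It had 14.2, 30.01, 21.9 and 24.0 CPM in stele 2, against 0.975, 0.410, 0.308 and 3.17 CPM in stele 1. Stele 1 replicate 4 held 26 of the 37 counts of its group. edgeR estimated a log2 fold change of 4.19 ± 0.61 (SE, n = 4 each, edgeR adjusted p = 0.000188), 5.41 without stele 1 replicate 4 and 5.07 within lane 7. In zone 4 it had 4.09, 6.17, 0.859, 3.84 and 12.9 CPM, against 93.8, 93.5, 94.2, 95.4 and 116 CPM in zone 3. The zone difference was -4.20 ± 0.36 on the log2 scale (SE, n = 5 each, edgeR adjusted p = 1.67e-09). The gene rose at both earlier steps, with 1.53 ± 0.839 CPM in zone 1 and 35.3 ± 14.3 CPM in zone 2 (SD, n = 5 each). MA_10425995g0010, described above, was also first of the 72 candidates lower in stele 2 and higher in zone 4, where its log2 fold change was 1.91 ± 0.19 (SE, n = 5 each, edgeR adjusted p = 2.17e-08).

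MA_38571g0010 led the 280 candidates higher in both, but its stele difference was fragile. It had 548, 195, 190.2 and 205 CPM in stele 2, against 100.2, 5.06, 2.15 and 3.41 CPM in stele 1. Replicate 1 of each stele stood far above the rest of its group. The log2 fold change was 3.38 ± 1.19 (SE, n = 4 each, edgeR adjusted p = 0.0475), and 6.33 without stele 1 replicate 1 (edgeR adjusted p = 0.00134). The call was lost, with adjusted p of 0.0588 to 0.118 in edgeR, when any of 6 other libraries was left out alone, and those are stele 2 replicates 1, 2 and 4 and stele 1 replicates 2, 3 and 4. The values without them were 2.92, 3.55 and 3.52 for stele 2 and 3.03, 2.99 and 3.01 for stele 1. It was also lost within lane 7 (2.49, edgeR adjusted p = 0.225), with total counts (edgeR adjusted p = 0.0507), with a lane term (edgeR adjusted p = 0.0669) and with only the steles in the fit (edgeR adjusted p = 0.0912). With the replicate numbers as a block it was 4.25 (edgeR adjusted p = 0.0203). In zone 4 it had 183, 95.3, 70.7, 156 and 58.1 CPM, against 13.9, 10.7, 16.8, 11.8 and 15.8 CPM in zone 3, a log2 fold change of 3.02 ± 0.26 (SE, n = 5 each, edgeR adjusted p = 1.89e-09).

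MA_2828g0010 led the 162 candidates lower in both. It had 7.25, 4.25, 48.6 and 5.30 CPM in stele 2, against 170.0, 169, 294 and 92.4 CPM in stele 1. Stele 2 replicate 3 stood apart from its group, towards stele 1. Its log2 fold change was -3.47 ± 0.72 (SE, n = 4 each, edgeR adjusted p = 0.00245) and -5.03 without stele 2 replicate 3, and within lane 7 it missed the threshold (-3.36, edgeR adjusted p = 0.0876). In zone 4 it had 1.20, 0.617, 0.859, 0.384 and 0.211 CPM, against 20.2, 64.0, 8.004, 23.3 and 18.9 CPM in zone 3. The zone difference was -5.28 ± 0.51 on the log2 scale (SE, n = 5 each, edgeR adjusted p = 1.33e-08), or -4.64 without replicate 2 of every zone.

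**Figure D3:**
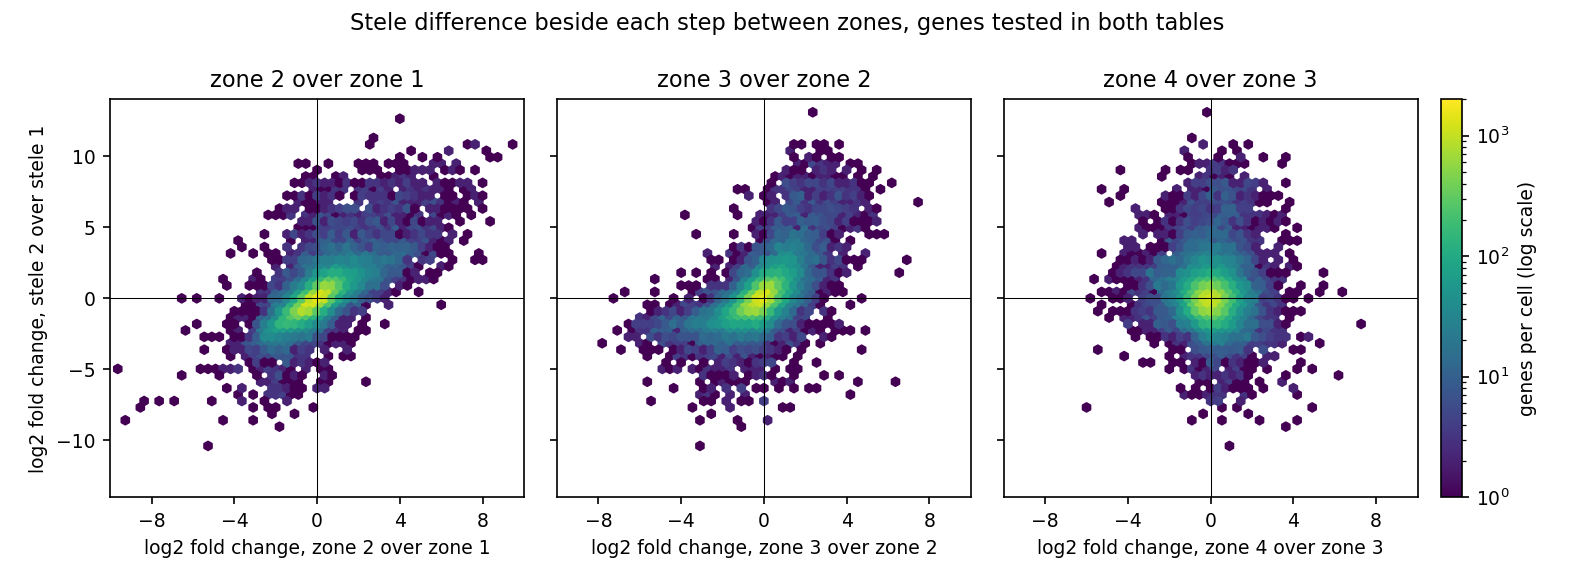
Each panel sets the log2 fold change of stele 2 over stele 1 (vertical axis) against that of 1 step between zones (horizontal axis, later over earlier zone) for the 23730 genes tested in both tables, with colour for the number of genes per cell on a log scale. The cloud runs from lower left to upper right for zone 2 over zone 1 (r of 0.727) and zone 3 over zone 2 (r of 0.622), and has no slope for zone 4 over zone 3 (r of -0.045).

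The match depended on the size of the stele difference in a different way for each step. For zone 2 against zone 1, genes called the same way made up 85.5% of the stele genes with an absolute log2 fold change under 1, 86.7% from 1 to 2, 86.4% from 2 to 4, 76.3% from 4 to 8 and 83.5% at 8 and over. For zone 3 against zone 2 these shares were 60.0%, 69.8%, 76.3%, 82.4% and 95.9% over the same classes, so they grew with the estimated stele difference. For zone 4 against zone 3 they were 32.02%, 22.6%, 19.7%, 29.3% and 39.2%. Genes called the opposite way at this last step made up 29.2%, 30.9%, 32.2%, 28.5% and 21.6%. The classes held 1246, 2040, 1335, 659 and 97 genes. They use the edgeR estimates as they stand, without the floor of 3 counts, also for genes with no count in 1 of the steles. The size of such a difference is only bounded, so membership of the upper classes is less certain.

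Taking the first and the next step together, 2966 of the 3180 genes higher in stele 2 (93.3%) were called higher in zone 2 against zone 1 or in zone 3 against zone 2, and 1650 (51.9%) in both. Among all genes tested in both tables these shares were 38.4% and 13.005%. Of the 2197 genes lower in stele 2, 2103 (95.7%) were called lower in either step and 1678 (76.4%) in both, against 40.6% and 18.6% of all genes. 65 of the higher (2.04%) and 41 of the lower genes (1.87%) were called in none of the 3 steps, against 15.5% of all genes. Shares of all genes, here and above, were not matched for level. The median level was 25.8 CPM in stele 2 for the higher genes and 18.3 CPM in stele 1 for the lower genes. Over all tested genes these medians were 5.10 and 4.996 CPM.

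The genes higher in stele 2 did not share a single course along the zones. Zone 1 held the highest zone mean of 46 of them (1.45%), zone 2 of 349 (11.0%), zone 3 of 1403 (44.1%) and zone 4 of 1382 (43.5%). Over all genes tested in both, these shares were 39.6%, 12.9%, 18.2% and 29.3% from zone 1 to zone 4. The most frequent course was a rise at each of the first steps and a fall in zone 4, for 662 genes (20.8%), followed by such a rise with no call in zone 4 for 567 (17.8%) and a rise at all 3 steps for 421 (13.2%). Among all genes tested in both, these courses held for 4.73%, 4.83% and 3.44%. The lowest zone mean of the genes higher in stele 2 lay in zone 1 for 2640 (83.02%). For all genes tested in both, the lowest zone mean lay in zone 1 for 35.5%, zone 2 for 9.85%, zone 3 for 22.3% and zone 4 for 32.3%. The genes lower in stele 2 had their highest zone mean in zone 1 in 2081 cases (94.7%), and their lowest was split between zone 3 with 1025 (46.7%) and zone 4 with 1061 (48.3%). Of these lower genes 987 (44.9%) fell at the first and the next step with no call at the last, 388 (17.7%) fell at all 3, and 303 (13.8%) fell at the first steps and rose in zone 4. The same courses held for 11.4%, 3.91% and 3.22% of all genes tested in both.

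The same picture appeared in each zone library. Levels were taken as the median log2 CPM over the called genes tested in both tables, centred per gene over the zone libraries. The genes higher in stele 2 lay at -0.96 ± 0.03, 0.01 ± 0.15, 0.59 ± 0.06 and 0.49 ± 0.07 from zone 1 to zone 4 (SD, n = 5 each). The genes lower in stele 2 lay at 1.32 ± 0.02, 0.26 ± 0.21, -0.73 ± 0.07 and -0.78 ± 0.08. Over all genes tested in both, the zone means ranged from -0.05 to 0.07. Zone 2 libraries spread most, and the levels of zones 3 and 4 overlapped in both lists. The higher genes minus the lower genes gave -2.27 ± 0.03, -0.25 ± 0.35, 1.32 ± 0.13 and 1.27 ± 0.13 from zone 1 to zone 4 (SD, n = 5 each). In zone 2 the libraries ran from -0.76 in replicate 2 to 0.22 in replicate 3. The mean difference thus rose up to zone 3 and changed little in zone 4. Because each gene is centred over the zone libraries, values below and above 0 must roughly balance. They give the course along the zones and not which list had the higher level in a zone.

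**Figure D4:**
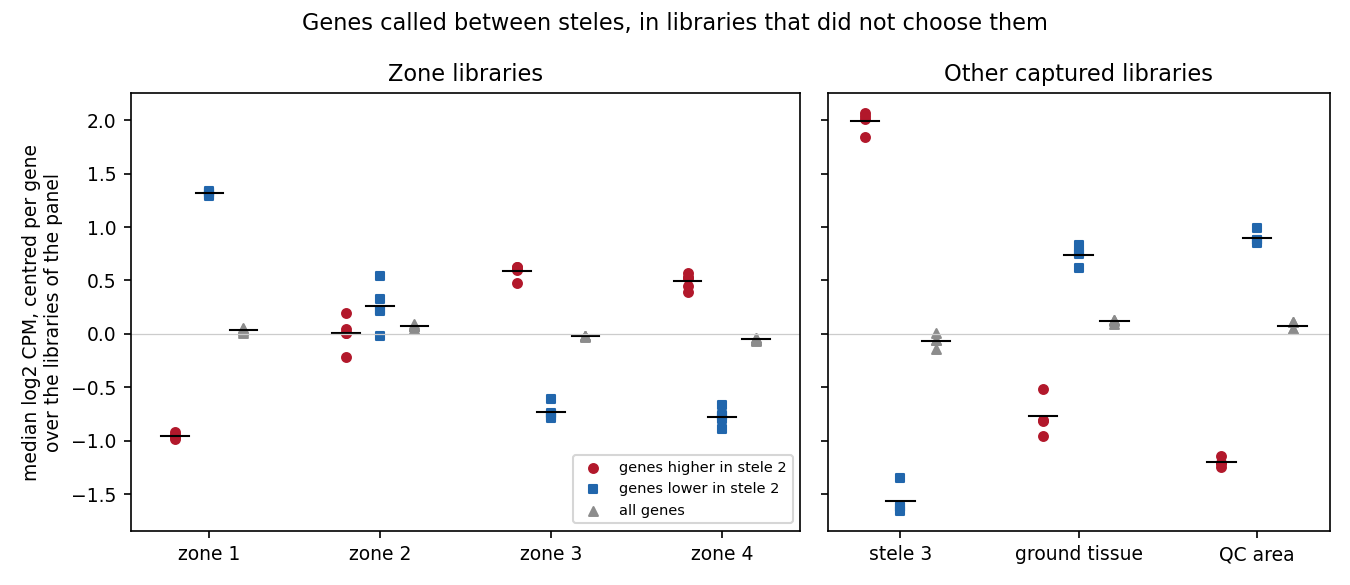
Median log2 CPM, centred per gene over the libraries of a panel, of the genes higher in stele 2 (circles), the genes lower (squares) and all tested genes (triangles), with 1 point per library and a bar at the group mean. The panel of zones takes only genes tested in both tables, and the other panel takes all genes tested in the captured libraries. The panel of zones shows the higher genes from -0.96 in zone 1 to 0.59 in zone 3, and the panel of other captured groups shows them at 1.99 in stele 3 and -1.20 in the QC area.

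Seen the other way, genes called between zones separated the stele libraries. For each library the median centred log2 CPM of the genes higher in the later zone was taken, minus that of the genes lower there. Each gene was centred over the 8 stele libraries, so the means of both steles must roughly mirror each other around 0. The score gives the gap between the steles, and its sign within a stele has no meaning of its own. For the genes of zone 2 against zone 1 this score was 0.92, 0.99, 0.32 and 1.31 in stele 2, against -0.32, -0.86, -1.43 and -0.89 in stele 1. The means were 0.89 ± 0.41 in stele 2 and -0.88 ± 0.45 in stele 1 (SD, n = 4 each), and the groups did not overlap. For the genes of zone 3 against zone 2 it was 1.01, 1.04, 0.21 and 1.08 in stele 2, against -0.33, -0.87, -1.24 and -0.89 in stele 1. Again the groups did not overlap. For the genes of zone 4 against zone 3 the means were -0.03 ± 0.02 in stele 2 and 0.05 ± 0.13 in stele 1 (SD, n = 4 each), and the groups overlapped.

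Within each stele the same score varied. In both of the scores that separated the steles, stele 2 replicate 3 was the lowest of its group and stele 1 replicate 1 the highest of its own, the same libraries that lay nearest to the other group on PC1. Stele 1 replicates 1 and 2, from lane 7, had scores of -0.32 and -0.86 for the genes of zone 2 against zone 1, and replicates 3 and 4, from lane 8, had -1.43 and -0.89. Both lane 7 libraries of stele 1 thus lay above both lane 8 libraries, by a narrow gap, and the part of lane in this was not tested. Within lane 7, all stele 2 libraries lay above both stele 1 libraries.

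**Figure D5:**
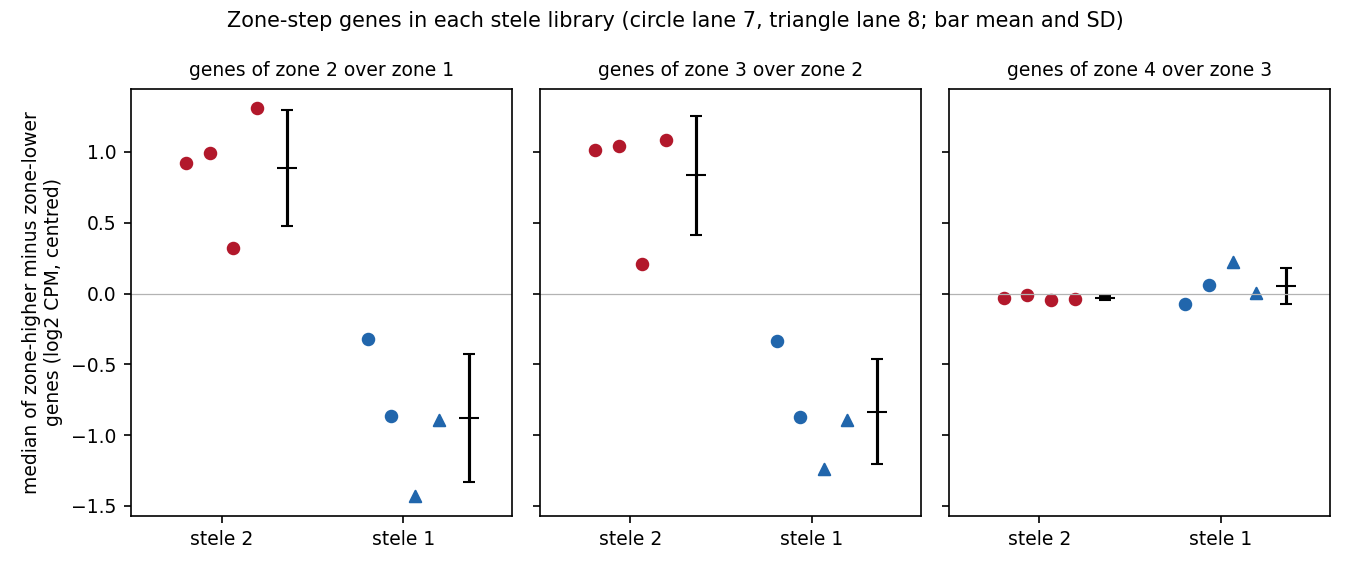
Score of the genes called at each step between zones in each stele library, as the median log2 CPM of the genes higher in the later zone minus that of the genes lower there. Each gene is centred over the stele libraries. Circles are lane 7 and triangles lane 8, and bars are the mean and SD over 4 libraries. Stele 2 lies at 0.32 to 1.31 and stele 1 at -1.43 to -0.32 for the genes of zone 2 over zone 1, and both lie near 0 for those of zone 4 over zone 3.

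Captured groups outside this comparison were also used. Stele 3 against the QC area shares no library with stele 2 against stele 1, although both come from 1 fit and share its estimate of the spread. The QC area libraries were all in lane 8. Of stele 3, replicates 2, 3 and 4 were in lane 7 and replicate 1 in lane 8, so lane varied with region here as well. The part of lane in this match was not tested. Of all tested genes 7737 (28.4%) were higher and 7824 (28.7%) lower in stele 3. Of the genes higher in stele 2, 3247 (96.1%) were higher in stele 3 and 6 (0.178%) lower. Of the genes lower in stele 2, 2234 (91.4%) were lower in stele 3. Of all genes called in both, 5481 had the same direction and 6 the opposite one, and r across genes was 0.795. Leaving out stele 1 replicate 3, 3562 had the same direction, and without stele 2 replicate 3, 14 had the opposite one. At each single library, the higher genes lay at 1.84 to 2.06 in stele 3, against -1.25 to -1.15 in the QC area, on the centred log2 scale. The lower genes lay at -1.66 to -1.35 in stele 3, against 0.85 to 1.00 in the QC area.

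Ground tissue against the QC area called far fewer genes, 880 higher (3.23%) and 412 lower (1.51%) in ground tissue. Ground tissue replicate 2 was in lane 7 and replicates 1, 3 and 4 were in lane 8. Among the genes higher in stele 2, 464 (13.7%) were higher in ground tissue and 68 (2.01%) lower. Among the genes lower in stele 2, 81 (3.31%) were lower in ground tissue and 11 (0.450%) higher. The r across genes was 0.212. The 79 genes that went opposite ways became 51, 52 and 46 without stele 1 replicates 2, 3 and 4, each left out alone. The higher genes lay at -0.77 ± 0.18 in ground tissue, against -1.20 ± 0.04 in the QC area, and the lower genes at 0.74 ± 0.09 in ground tissue, against 0.90 ± 0.07 in the QC area (SD, n = 4 each). On this measure ground tissue lay close to the QC area and far from stele 3.

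Among the genes named above, 7 of the 8 higher in stele 2 had a higher mean in stele 3 than in stele 2, and MA_458849g0010 was the exception. Of these 7, MA_14092g0010, MA_115621g0010, MA_128422g0010 and MA_38571g0010 did not pass the test of stele 3 against stele 2. Their edgeR adjusted p were 0.0818, 0.292, 0.193 and 0.459. MA_16561g0010 passed (edgeR adjusted p = 0.0231), and the others are given below. All 7 that were lower in stele 2 averaged no more in stele 3 than in stele 2, with MA_94115g0010 at 0 in both. MA_655783g0010 and MA_2828g0010 passed that test (edgeR adjusted p = 0.00141 and 0.0242). MA_62177g0010, MA_86195g0010 and MA_10425995g0010 did not (edgeR adjusted p = 0.0889, 0.0786 and 0.304). Stele 3 against stele 2 shares the stele 2 libraries with the comparison described here, so its values only stand beside it. MA_15847g0010 averaged 469 ± 220 CPM in stele 3 (SD, n = 4), with a log2 fold change over stele 2 of 3.05 ± 0.35 (SE, edgeR adjusted p = 5.53e-05). MA_10429882g0010 averaged 115 ± 36.8 CPM there (SD, n = 4), 1.86 ± 0.35 above stele 2 on the log2 scale (SE, edgeR adjusted p = 0.00225). MA_10431910g0010 averaged 11.9 ± 1.04 CPM in stele 3 (SD, n = 4) and did not pass the test against stele 2 (-0.09 ± 0.17, SE, edgeR adjusted p = 0.771).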

How the data were processed

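The authors deposited 1 table of raw counts per gene for the captured samples and 1 for the zones, both of which were used. HTSeq, STAR and Trimmomatic are named per the submitters' processing notes. No version, genome build, annotation or strand setting is given in the sources used here, so overlapping or antisense genes cannot be told apart, and near-identical copies may share reads. Per the labels' protocols, captured RNA was isolated with the RNAqueous-Micro kit, and zone RNA with chloroform and isoamyl alcohol followed by an RNeasy kit, so the tables were fitted apart. Table columns were matched to samples by the group and replicate letter in the library names, and 0 columns were left without a sample. Lanes were read from the library names.

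Genes were filtered with filterByExpr, which kept at least 99.6% of the counts of each captured library and 98.8% of each zone library. Libraries were scaled by TMM and tested with glmQLFit and glmQLFTest in edgeR 4.0.16 (R 4.3.3) over all groups of a table, with Benjamini-Hochberg adjustment over all tested genes and a threshold of 0.05. CPM use TMM-scaled totals, and SE is the standard error of a log2 fold change. Scores and correlations between libraries use log2 CPM with a prior count of 2. A floor of 3 counts over a group stands for a group without counts, and for 1 to 3 counts an exact binomial 95% interval is given. Reads carry no molecular identifiers in the sources used here.

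Named genes had to be called, average at least 10 CPM over both groups and not overlap between groups, for the zone steps in both comparisons. The 2 smallest p-values in each direction were named for the steles. For each zone step, the gene with the largest value of the smaller absolute log2 fold change was named for each combination of directions. Members and lists were chosen with earlier results of these data known. Lists of named markers or products could not be applied, because no annotation was used here. Same-numbered stele libraries deviated from their group means with correlations of 0.0905, 0.00668, 0.196 and -0.0912, so the numbers were not taken to pair samples. Replicates differed beyond sampling noise (lowest chi-square per gene 25.8 in stele 2 and 8.58 in stele 1), and none were merged. DESeq2 1.42.0, other scalings and filters, lane, a replicate block and single libraries left out were the alternatives. Figures were drawn with matplotlib 3.10.9.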

Additional observations from a re-analysis of the deposited data

Results flagged for a closer look

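Of 88 groups of values looked at, 10 held a library far from the others of its group. The limit used would flag about 1 group in 20 for independent, normally distributed values. CPM of genes chosen by a rule and measured in the same libraries need not be either, so 10 of 88 cannot be read as an excess. Stele 2 replicate 3 stood apart with 48.6 CPM of MA_2828g0010, against 4.25 to 7.25 CPM in the others, and with a score of 0.205 for the genes of zone 3 against zone 2, against 1.01 to 1.08. Replicate 1 stood apart for MA_38571g0010 in both steles, with 548 CPM in stele 2, where the others had 190.2 to 205 CPM, and 100.2 CPM in stele 1, where the others had 2.15 to 5.06 CPM. Stele 2 replicate 2 had 495 CPM of MA_458849g0010, against 775 to 813 CPM. Stele 1 replicate 3 had 108 CPM of MA_86195g0010, against 42.5 to 52.2 CPM, and 1.03 CPM of MA_115621g0010, which had no count in the others. In the zones, zone 1 replicate 4 had 14.2 CPM of MA_94115g0010, against 20.8 to 23.4 CPM. Zone 3 replicate 2 had 64.0 CPM of MA_2828g0010, against 8.004 to 23.3 CPM, and zone 3 replicate 5 had 116 CPM of MA_16561g0010, against 93.5 to 95.4 CPM.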

How the results depend on the processing

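Calls between the steles were fewer when only the steles were fitted (1723 higher, 911 lower), within lane 7 (600, 53) and at an adjusted p under 0.01 (1788, 940), and with a lane term 1568 were lower. Leaving out 1 library gave 2254 to 3671 higher and 1473 to 2948 lower. The share higher, 58.0%, became 46.3% with total counts, 53.5% with DESeq2, 64.9% without a filter, 65.4% with only the steles, 62.3% with the lane term, 91.9% in lane 7, 59.7% at a 2-fold minimum, 65.5% at 0.01 and 55.5% to 65.5% without 1 library. Without stele 1 replicate 1 and stele 2 replicate 3, left out together by a choice made after seeing the data, it was 54.4%, with 3885 higher and 3256 lower genes. A 2-fold minimum left 3700 higher and 3282 lower genes for zone 2 against zone 1, 3807 and 3166 for zone 3 against zone 2, and 3350 and 2224 for zone 4 against zone 3.

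Genes with the same direction, in the order only steles, lane 7, 2-fold and 0.01, numbered 2278, 570, 2575 and 2217 beside zone 2 against zone 1 (without 1 library 3026 to 5050), 1911, 519, 2076 and 1803 beside zone 3 against zone 2 (2572 to 4313), and 575, 152, 424 and 490 beside zone 4 against zone 3 (873 to 1535). Those with the opposite direction numbered 30, 13, 30 and 27 (55 to 107), then 98, 20, 58 and 61 (129 to 253), then 903, 293, 664 and 737 (1102 to 1795). Without that pair, 5451, 4640 and 1631 had the same direction at the 3 steps and 106, 256 and 1918 the opposite one. Without a filter r was 0.516 and 0.406 for the first steps. For zone 4 against zone 3, r was -0.099 with only the steles and turned to 0.016 in lane 7, and the cause was not tested. Beside stele 3 against the QC area, 2646 had the same and 1 the opposite direction at 0.01 (without 1 library 3562 to 6081 and 4 to 14, without the pair 6619 and 7). Ground tissue against the QC area had 402 higher and 177 lower at 0.01 and 738 lower with DESeq2. Beside it, 859 had the same direction with DESeq2 and 208 at 0.01, and the opposite direction 156 with DESeq2, 51 with the lane term, 17 at 0.01, 141 without the pair of libraries and 46 to 113 without 1 library.

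The level of the higher minus the lower genes differed by 3.59 (log2) between zone 3 and zone 1. With the genes called by other settings it was 3.25 for DESeq2, 4.05 without a filter and 4.24 with only the steles. It was 3.79 with the lane term, 6.03 for the genes called in lane 7, 4.46 at 2-fold and 4.30 at 0.01. Without 1 library it was 3.52 to 3.99, or 3.48 without the pair. Between stele 3 and the QC area it was 5.65, and 5.20, 6.35, 6.57, 5.92, 9.63, 6.98 and 6.72 in the same order, and 5.48 to 6.28 without 1 library. Only the list of called genes changed in these settings, and with DESeq2 also the scaling. The levels were always taken over all libraries of these groups, whatever their lane. Total counts moved the median log2 fold change of all genes to -0.22 for the steles (TMM -0.05), to -0.11 for zone 3 against zone 2 (TMM -0.01) and to 0.14 for zone 4 against zone 3 (TMM 0.04). With the replicate numbers as a block, 3220 genes were higher and 2260 lower in stele 2, 58.8% of them higher, and 4384 had the same direction as zone 2 against zone 1. With the block in the zone fit, 7843 and 7669 genes were called there and 4568 had the same direction. The block moved no count of calls by over 1.5 times. The 4 libraries a group, the lanes and the low counts of single genes limit these values.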
